A study of Sus scrofa with 15 samples.

Results

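SQLE and ACAT2 are the enzymes of cholesterol synthesis named in the table of signals from the backfat of Iberian pigs on a control or a high-oleic diet. They were taken by gene symbol, as every probe set whose platform annotation was exactly SQLE or ACAT2. This gave 2 probe sets, 1 for each gene, of 3272 in the table. Among the 1260 genes named in the table, SQLE was annotated to gene ID 100113409 and ACAT2 to gene ID 100152303. With 1 probe set per gene, no second probe set could be set against either reading.

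Cells make cholesterol from acetyl-CoA through the mevalonate pathway. ACAT2, the cytosolic acetyl-CoA acetyltransferase, joins acetyl-CoA units at its start, and SQLE, squalene monooxygenase, oxidises squalene far downstream, just before the sterol rings close. ACAT2 here is not SOAT2, the cholesterol-esterifying enzyme once called by the same name, which has its own entry in the RefSeq gene table. Sterol regulatory element-binding proteins (SREBPs), released when membrane sterol falls, are known to switch on both sterol enzymes. A related SREBP form, with insulin, drives fatty acid synthesis and its central enzyme FASN, the fatty acid synthase. Both pathways draw on cytosolic acetyl-CoA, and in pigs adipose tissue is a main site of fatty acid synthesis.

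The 15 animals were castrated males of the Iberian breed, a pig that lays down much fat. There were 7 on the control diet, a standard feed of 3130 kcal per kg, and 8 on the high-oleic diet, a feed enriched in oleic acid of 3360 kcal per kg. Diets ran for 24 weeks from 28 kg live weight to slaughter near 110 kg, with 10% more feed given to control pigs to match energy and protein. Subcutaneous fat, labelled as the inner layer, was taken at the last rib, and 1 Affymetrix array was hybridised per animal. The labels give neither age nor litter.

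Values are log2 signals, so a difference of 1 is a doubling, and they lay between 1.49 and 14.36 over the table. Array medians were between 6.38 and 6.67, and precision is limited by having 15 arrays. The table held variable probe sets: each tested one had at least 3 arrays about 1.5-fold or more from its own median. Of the 22 sterol synthesis genes in the list used, the other 20 were not analysed here. A gene is called measured here if the table held it under a single symbol, so others may still have been on the array. Of 14 adipocyte markers 3 were measured: LEP lay between 10.29 and 12.52 on its brighter probe set, PNPLA2 between 8.11 and 9.37 and RBP4 between 8.30 and 10.25. The skeletal muscle score, a mean of centred log2 values over 7 of 13 markers, ran from -2.39 to 3.44, so the samples differed in muscle RNA. Control animal 1 and high-oleic animal 2 stood apart in genes induced by interferon: ISG15 was 13.26 and 12.93 in them and at most 9.92 in the other 13, and ZBP1 was 11.32 and 10.41 against at most 7.19. In whole tissue, fewer cells of a type and less RNA per cell cannot be told apart.

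SQLE varied 3.03-fold over the 15 animals, with 26.3% of tested probe sets less variable by SD, and no difference between diets passed the test. In control animals 1 to 7 its log2 signal was 6.0, 6.98, 6.09, 6.66, 6.97, 7.25 and 6.73. In high-oleic animals 1 to 8 it was 7.60, 6.60, 6.68, 7.06, 7.56, 6.97, 7.20 and 7.30. High-oleic animals 1, 5 and 8 lay above every control animal, control animals 1 and 3 lay below every high-oleic animal, and the other 10 overlapped.

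The mean SQLE signal was 6.67 ± 0.47 (SD, n = 7) on the control diet and 7.12 ± 0.37 (SD, n = 8) on the high-oleic diet. The difference, high-oleic minus control, was 0.45 with a standard error of 0.25 and a 95% interval of -0.06 to 0.97. As a ratio this is 1.37-fold, with a 95% interval from 0.957 to 1.96. In limma with Benjamini-Hochberg adjustment over all 3255 probe sets tested, the adjusted p was 0.999 and the unadjusted p 0.0823. The exact permutation test over all 6435 splits of the animals gave an unadjusted p of 0.0583. The difference was 0.34 without control animal 1 and 0.36 without control animal 3, the lowest animals, 0.42 without the 2 animals high in interferon genes, and 0.60 with live weight in the fit.

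ACAT2 varied 2.36-fold, with 10.4% of tested probe sets less variable by SD, and no difference between diets passed the test. In control animals 1 to 7 its log2 signal was 8.52, 8.26, 9.28, 9.22, 9.31, 9.49 and 9.24. In high-oleic animals 1 to 8 it was 8.65, 8.30, 8.92, 9.05, 8.62, 9.45, 9.20 and 9.27. Each diet held animals with low signal, control animals 1 and 2 and high-oleic animals 1, 2 and 5, which lay at 8.65 or below. The other 10 lay at 8.92 or above.

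The mean ACAT2 signal was 9.05 ± 0.46 (SD, n = 7) on the control diet and 8.93 ± 0.39 (SD, n = 8) on the high-oleic diet. The difference was -0.11 with a standard error of 0.25 and a 95% interval of -0.64 to 0.41, or 0.924-fold with an interval from 0.644 to 1.32. The adjusted p in limma was 0.999 and the unadjusted exact permutation p was 0.605. Single animals moved this value, to -0.25 without control animal 2 and to -0.02 without high-oleic animal 2, and it was -0.11 without the 2 animals high in interferon genes. The sign turned to 0.13 with live weight in the fit, and the value was -0.25 with spiked signal in the fit.

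**Figure D1:**
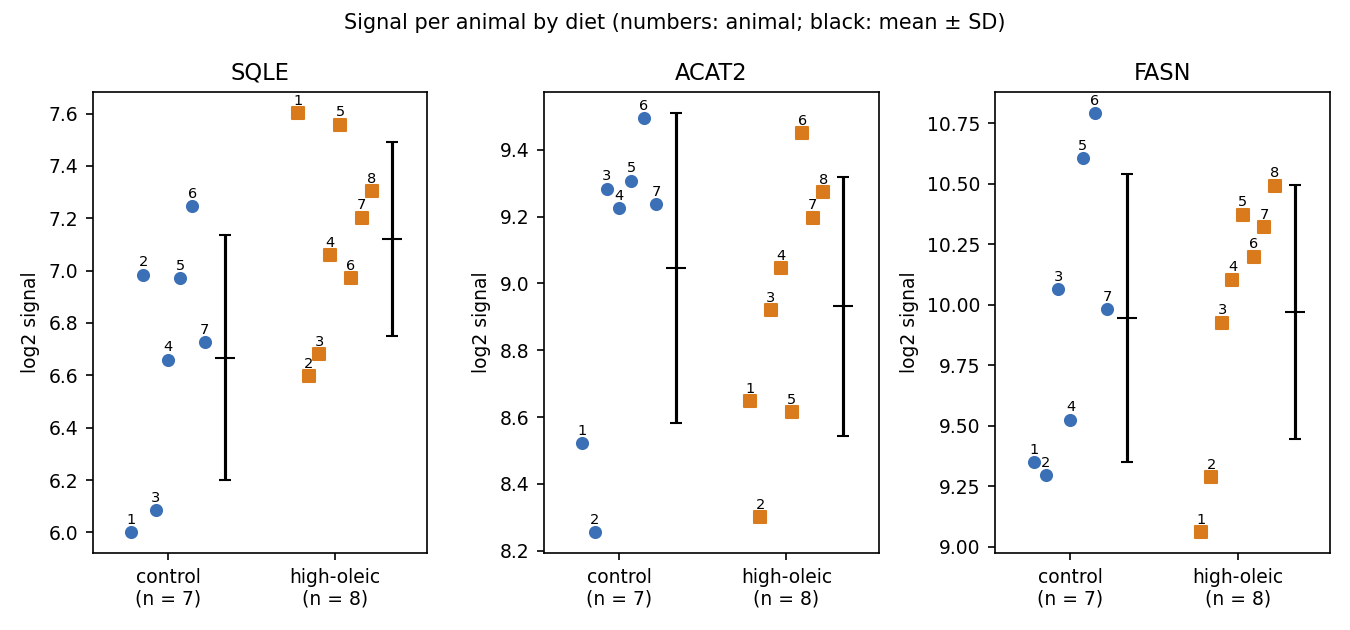
Log2 signal (vertical axes) of SQLE, ACAT2 and FASN in each of the 7 control (circles) and 8 high-oleic (squares) animals, numbered by animal, with the mean ± SD of each diet in black. SQLE averaged 6.67 on the control diet and 7.12 on the high-oleic diet. In ACAT2 1 control animal lies above and 1 below all high-oleic animals, and in FASN 2 control animals lie above and 2 high-oleic animals below all of the other diet.

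Between diets, limma called 0% of the 3255 probe sets at an adjusted p under 0.05. An unadjusted p under 0.05 was found for 3.93% of them (128), and neither SQLE nor ACAT2 was among them. The exact permutation test also called 0 after adjustment, with 136 at an unadjusted p under 0.05. The labels name separate animals, so the spread behind these tests is that between pigs.

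No correlation between SQLE and ACAT2 passed the test in these animals. Over the 15 animals Pearson's r was 0.065 with a 95% interval of -0.463 to 0.559 (permutation p = 0.819). Spearman's rho was 0.0804 (permutation p = 0.774). High-oleic animals 1 and 5 had the highest SQLE of all 15 and were among the 5 lowest for ACAT2, while control animal 3 was the second lowest for SQLE and 4th highest for ACAT2. The correlation was 0.237 within the control diet (n = 7, exact permutation p = 0.645) and 0.0597 within the high-oleic diet (n = 8, exact permutation p = 0.881). Within the control diet it moved to 0.732 without control animal 2 (n = 6, exact permutation p = 0.0514), and within the high-oleic diet to -0.517 without high-oleic animal 2 (n = 7, exact permutation p = 0.240). It was 0.160 at fixed diet and -0.179 at fixed signal of the spiked control transcripts. Without control animals 1 and 3, the 2 farthest from the SQLE median, r was -0.0131, and without the 2 animals high in interferon genes it was -0.317 (permutation p = 0.292). The interval is wide, so a moderate correlation of either sign could not be detected with 15 animals.

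**Figure D2:**
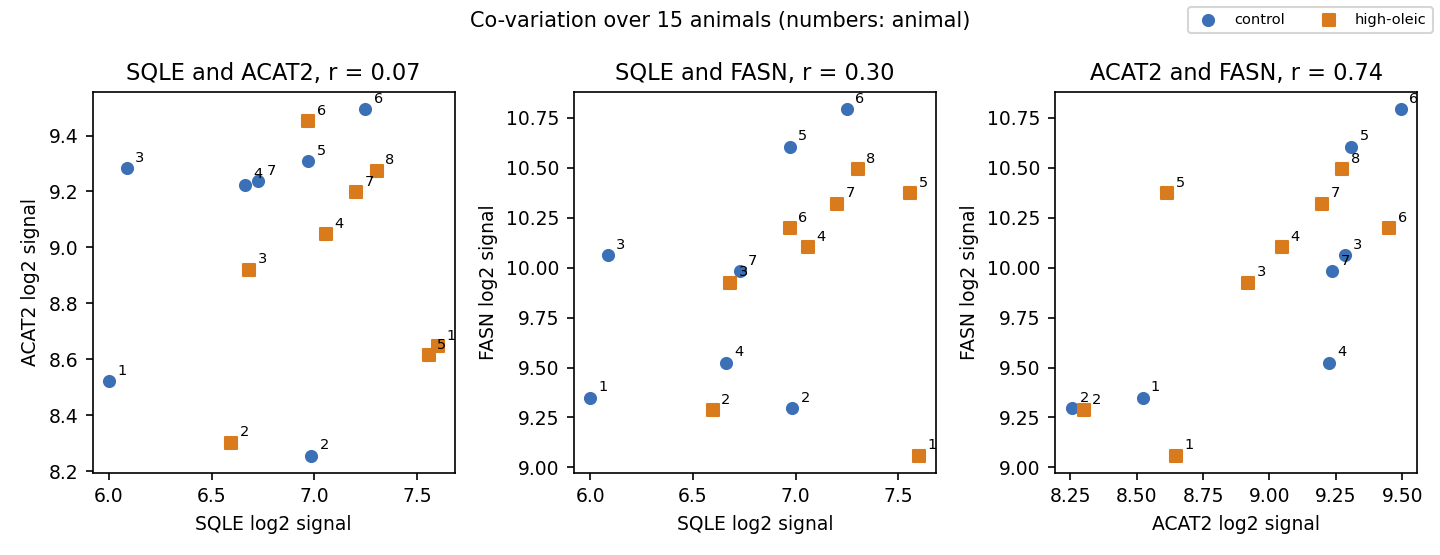
Log2 signals of each pair of SQLE, ACAT2 and FASN (both axes) in the 15 animals, with circles for the control and squares for the high-oleic diet and numbers for animals. ACAT2 and FASN lie along a rising band (r = 0.738), and SQLE and ACAT2 do not (r = 0.065).

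ACAT2 was correlated with FASN over the 15 animals, the only relation among the 3 genes that passed the test, and the call was lost under several other settings. FASN had log2 signals of 9.35, 9.30, 10.06, 9.52, 10.60, 10.79 and 9.98 in control animals 1 to 7. In high-oleic animals 1 to 8 it was 9.06, 9.29, 9.92, 10.10, 10.37, 10.20, 10.32 and 10.49. Control animals 1 and 2 and high-oleic animals 1 and 2 were low in both genes, and control animal 6 was the highest of all in both. High-oleic animal 5 departed from the band, with the 4th highest FASN and the 12th highest ACAT2.

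Pearson's r between ACAT2 and FASN was 0.738 with a 95% interval of 0.363 to 0.907 (permutation p = 0.00216, adjusted p = 0.00648 over the 3 pairs among SQLE, ACAT2 and FASN). Spearman's rho was 0.714 (permutation p = 0.00406, adjusted p = 0.0122). Among the 7 control animals r was 0.808 (exact permutation p = 0.0321, adjusted p = 0.0964), and these animals had the same order in both genes. Among the 8 high-oleic animals r was 0.682 (exact permutation p = 0.0660, adjusted p = 0.198), and rho was 0.500. Neither Pearson's r within a diet passed after adjustment. By rank, rho was 1 within the control diet (exact permutation p = 0.000397, adjusted p = 0.00119), which passed, and the high-oleic rho did not pass. Leaving out each animal in turn gave r between 0.695 and 0.835, with adjusted permutation p of at most 0.0217. Without control animal 2 and high-oleic animal 2, the lowest for ACAT2, r was 0.625 (permutation p = 0.0217, adjusted p = 0.0652), so the call rested partly on these 2 animals. Without the 2 animals high in interferon genes, which were also low in ACAT2 and FASN, r was 0.646 (permutation p = 0.0167, adjusted p = 0.0502).

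Live weight, array median and spiked signal each had a positive r with both genes of this pair. Live weight had r = 0.407 with ACAT2 and r = 0.446 with FASN, and the array median had r = 0.292 and r = 0.544. These values were not tested. At fixed diet and live weight the ACAT2 and FASN correlation was 0.690 (adjusted permutation p = 0.0158). The signal of 7 control probe sets for transcripts spiked into the RNA, a measure of the labelling rather than of the tissue, had r = 0.480 with ACAT2 and r = 0.644 with FASN. At fixed spiked signal the ACAT2 and FASN correlation was 0.639 (adjusted permutation p = 0.0332), and at fixed diet, live weight and spiked signal it was 0.545 (adjusted permutation p = 0.103). The fibroblast score, over 3 of 8 markers, had r = 0.410 with ACAT2 and 0.382 with FASN; it ran from -0.71 to 0.79 in control and from -0.58 to 0.34 in high-oleic animals. Its part in the relation was not tested. The adipocyte score, over 3 of 14 markers, had r = 0.332 with SQLE, 0.0763 with ACAT2 and 0.365 with FASN. Its median was -0.16 in control and 0.40 in high-oleic animals, and its part in these values was not tested. The lymphocyte score, over 4 of 12 markers, had r = -0.376 with SQLE, -0.323 with ACAT2 and -0.445 with FASN, also not tested.

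The labels number the animals within each diet, and same-numbered animals of the 2 diets were compared in 5 measures. Over the 7 numbers both diets share, r between the diets was 0.796 for ACAT2 (exact permutation p = 0.0238), 0.755 for FASN (exact permutation p = 0.0579) and 0.786 for spiked signal (exact permutation p = 0.0514). It was -0.165 for SQLE (exact permutation p = 0.715) and 0.131 for live weight (exact permutation p = 0.702). With adjustment over these 5 measures none passed, the lowest adjusted p being 0.0966. Over the 7 differences between same-numbered animals, high-oleic minus control, ACAT2 and FASN had r = 0.0414 with a 95% interval of -0.735 to 0.770 (exact permutation p = 0.934), so the call was not made there. What the numbers stand for is not stated in the labels.

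The correlation of SQLE with FASN did not pass the test, and its size turned on single animals. Over the 15 animals r was 0.301 with a 95% interval of -0.249 to 0.705 (permutation p = 0.276, adjusted p = 0.413), and rho was 0.386 (permutation p = 0.155). High-oleic animal 1, the lightest at 104.5 kg, had the highest SQLE and the lowest FASN of all 15. Without it r was 0.608 (permutation p = 0.0213, adjusted p = 0.0319). Within the high-oleic diet r was 0.145 with that animal (exact permutation p = 0.732) and 0.846 among the other 7 (exact permutation p = 0.00734), but it was -0.227 when high-oleic animal 2 was left out instead (exact permutation p = 0.633). Within the control diet it was 0.490 (exact permutation p = 0.267). At fixed spiked signal r was 0.0342, without control animals 1 and 3 it was 0.241, and without the 2 animals high in interferon genes it was 0.0694. Whether ACAT2 and SQLE differ in their correlation with FASN was not tested.

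**Figure D3:**
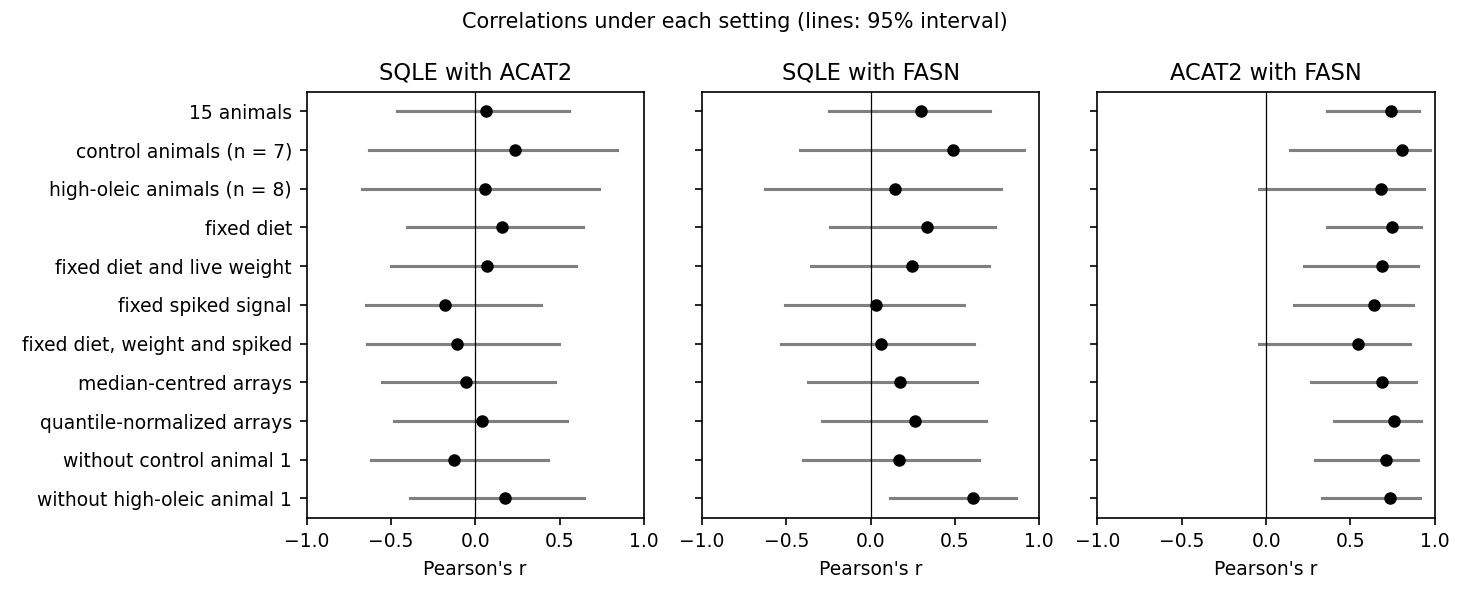
Pearson's r (horizontal axes) for the pairs of SQLE, ACAT2 and FASN over all 15 animals and under 10 other settings, with 95% intervals as lines. ACAT2 with FASN lies between 0.545 and 0.808 in these settings and SQLE with FASN between 0.0342 and 0.608. The differences between same-numbered animals, where r was 0.0414 and 0.0154, and rank correlations are not drawn.

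Live weight gave no slope that passed the test for either gene. Weight ranged from 112 to 133 kg on the control diet and from 104.5 to 116 kg on the high-oleic diet, so slopes were fitted at fixed diet. On the log2 scale the slope of SQLE was 0.18 per 10 kg (SE 0.24, 95% interval -0.32 to 0.68, limma adjusted p = 0.921). That of ACAT2 was 0.31 per 10 kg (SE 0.24, 95% interval -0.18 to 0.80, limma adjusted p = 0.916). That of FASN was 0.58 per 10 kg (SE 0.25, 95% interval 0.05 to 1.11), with an unadjusted p of 0.0341 and a limma adjusted p of 0.916. With no diet term the FASN slope was 0.35, and with the animals' numbers as a block it was 0.19. Without the 2 animals high in interferon genes the slopes were 0.065 for SQLE, 0.22 for ACAT2 and 0.49 for FASN. Limma called 0% of the probe sets for the slope, and 3.81% (124) had an unadjusted p under 0.05, of which FASN was 1.

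Control animal 5, at 133 kg, carried much of the weight range. It had an SQLE signal of 6.97, an ACAT2 signal of 9.31 and a FASN signal of 10.60. Without it the slopes were 0.16 for SQLE, 0.66 for ACAT2 and 0.97 for FASN per 10 kg, with standard errors of 0.46, 0.44 and 0.48. The SQLE slope was 0.28 within the control diet and -0.19 within the high-oleic diet, and their difference was -0.47 (95% interval -1.72 to 0.78, limma adjusted p = 0.996), or -1.30 without control animal 5. For ACAT2 the slopes were 0.30 and 0.34, with a difference of 0.05 (95% interval -1.20 to 1.29, limma adjusted p = 0.996), or -1.19 without control animal 5. Limma called 0% of the probe sets for this slope difference, and 4.98% (162) had an unadjusted p under 0.05, without SQLE or ACAT2.

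**Figure D4:**
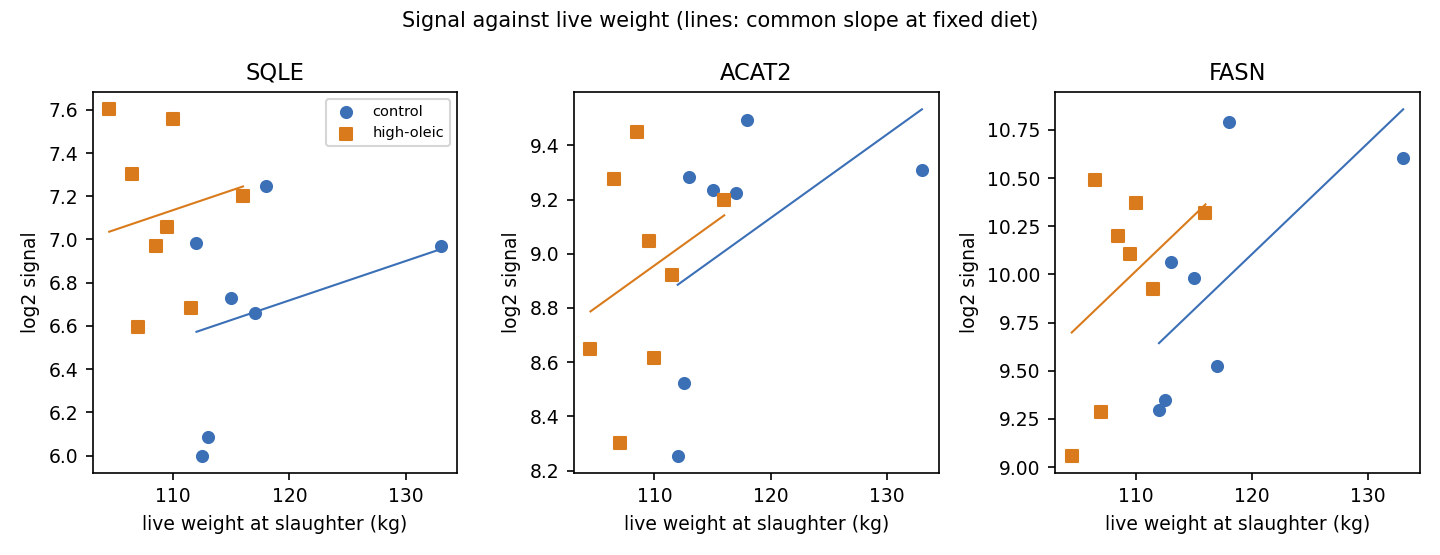
Log2 signal of SQLE, ACAT2 and FASN (vertical axes) against live weight at slaughter in kg (horizontal axes), with circles for control and squares for high-oleic animals and lines for the common slope at fixed diet. The slopes were 0.18, 0.31 and 0.58 per 10 kg, and 1 control animal at 133 kg lies far from the others.

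Among other genes of the sterol and fatty acid pathways none passed the test for diet or live weight. In the list of sterol regulators and uptake 2 of 22 genes were measured, both with higher mean signal on the high-oleic diet. ERLIN2, part of an endoplasmic reticulum complex that helps degrade sterol-sensing proteins, differed by 0.25 between diets, and the phosphatidate phosphatase LPIN1 by 0.22. Without high-oleic animal 8 these were 0.13 and 0.13, and with spiked signal in the fit 0.041 and 0.11. ERLIN2 was also at 0.14 without control animal 1, and LPIN1 at 0.13 without control animal 2. The ERLIN2 signal was dim, between 3.12 and 4.91, with 9.06% of tested probe sets dimmer. With a floor at the 10th percentile of signals its diet difference was 0.096. Of 19 genes of cholesterol storage and export 3 were measured. The cholesterol exporter ABCA1 differed by -0.35, and the oxysterol-forming enzymes CYP27A1 and CH25H by 0.74 and 0.05, with 0.77 and 0.06 on their second probe sets. Adjusted p in limma was 0.999 for each of them. For CYP27A1 the unadjusted limma p was 0.116 on the brighter and 0.0404 on the second probe set. None of 10 genes of other thiolases and ketone bodies was in the table under a single symbol.

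Of 21 genes of fatty acid synthesis and its supply 4 were measured, with 0 called and a median diet difference of -0.03, against -0.03 over all probe sets tested. ACACA, the acetyl-CoA carboxylase that feeds FASN, differed by -0.09, the cytosolic acetyl-CoA synthetase ACSS2 by -0.23 and FASN by 0.02. PNPLA3, a lipid droplet acylhydrolase, differed by 0.74 with an unadjusted p of 0.0320 and an adjusted p of 0.999 in limma. Without high-oleic animal 2, the highest for PNPLA3, it was 0.61 (limma unadjusted p = 0.0693). It was 0.53 without the 2 animals high in interferon genes (limma unadjusted p = 0.126) and 0.46 with array weights (limma unadjusted p = 0.150). For live weight the median slope of these 4 was 0.45 per 10 kg, against 0.04 over all probe sets, of which 54.4% had a slope above 0. The slope was 0.99 for ACACA (unadjusted p = 0.00220), 0.32 for ACSS2, or 0.82 without control animal 5, and 0.0050 for PNPLA3. The ACACA signal was rather dim, between 4.07 and 6.22, with 22.2% of tested probe sets dimmer. ERLIN2 had a slope of 0.21 and CH25H of -0.59, and without control animal 5 these were 0.58 and -0.28. The CH25H slope had a limma unadjusted p of 0.0160, and its second probe set had a slope of -0.46 (limma unadjusted p = 0.0609). On the probe set of highest mean, ABCA1, CYP27A1, LPIN1 and PNPLA3 lay between -0.04 and 0.10, and the second CYP27A1 probe set had a slope of 0.31.

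**Figure D5:**
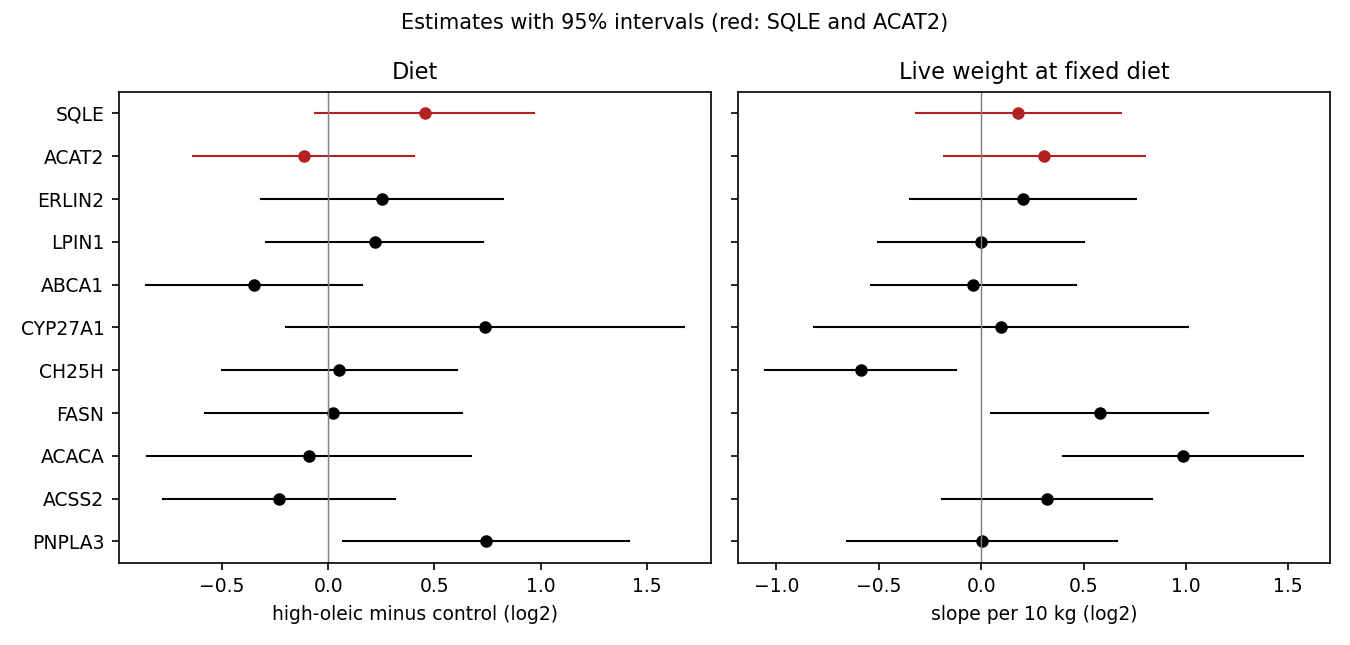
Difference between diets (left, high-oleic minus control, log2) and slope on live weight at fixed diet (right, log2 per 10 kg) for SQLE and ACAT2 in red and 9 other measured genes of the lists in black, as estimates with 95% intervals from limma. No gene passed the adjusted test, and the interval of ACACA for live weight lies highest, from 0.40 to 1.57.

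Among the measured genes of the fatty acid list, ACAT2 had r above 0.6 with FASN, ACSS2 and ACACA but not with PNPLA3. These correlations are descriptions over 15 animals, whose arrays differed in spiked signal, and whether those of ACAT2 and SQLE differ was not tested. ACAT2 had r = 0.724 with ACSS2 and r = 0.672 with ACACA, which ranked 38 and 56 among 1259 other named genes, with FASN at rank 30, and r = 0.0876 with PNPLA3, at rank 638. The median r of ACAT2 with those genes was 0.0931, and the central 90% ran from -0.516 to 0.661. At fixed spiked signal the r was 0.748 with ACSS2, 0.658 with ACACA and -0.191 with PNPLA3. SQLE had r = -0.0736 with ACSS2, with 0.370 within the control and -0.526 within the high-oleic diet. Its r with ACACA was 0.237, with 0.625 and -0.124 within these diets, while FASN ranked 271 and ACAT2 692 of 1259 for it. ERLIN2, with a dim signal of 3.12 to 4.91, was the pathway gene most like SQLE, with r = 0.667 and rank 6. It had r = 0.586 with ACAT2. At fixed spiked signal these were 0.577 and 0.389.

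The named genes most like ACAT2 were BAMBI, PIR, CDH13, YIPF1 and UROD, with r from 0.831 to 0.861. BAMBI, a pseudoreceptor that dampens TGF-beta signals, had r = 0.861 over all animals, 0.872 within the control and 0.845 within the high-oleic diet. PIR, which encodes the iron-binding nuclear protein pirin, had r = 0.839, and the adiponectin-binding cadherin CDH13 had r = 0.836. UROD is an enzyme of heme synthesis. The most opposite genes were LGALS8, CXCL9, DEPDC7, HSPB11 and RSRP1, with r from -0.746 to -0.664. Without the 2 animals high in interferon genes these were weaker, from -0.610 for LGALS8 to -0.461 for HSPB11. CXCL9, a chemokine induced by interferon gamma, ranged from 3.45 in control animal 6, the highest for ACAT2, to 7.87 in control animal 1.

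The genes most like SQLE were B2M, GFPT1, AHSP, TMEM158 and NUAK1, with r from 0.700 to 0.722. For TMEM158 r was 0.838 within the control but 0.190 within the high-oleic diet. GFPT1, the first enzyme of the hexosamine pathway, had r = 0.720 over all animals, 0.893 within the control and 0.415 within the high-oleic diet. AHSP, a chaperone of haemoglobin, had a dim signal of 2.61 to 4.96. It belongs to the erythroid markers, whose score over 3 of 5 genes had r = 0.503 with SQLE. AHSP is 1 of those 3, so the r of the score is not separate from that of AHSP. That score ran from -1.05 to 0.33 in control and from -0.94 to 1.20 in high-oleic animals, and its part in the SQLE values was not tested. The most opposite genes were NUF2, LIMA1, ZBP1, ZCWPW1 and ISG15, with r from -0.733 to -0.634. For NUF2 r was -0.805 within the control but -0.260 within the high-oleic diet.

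In the 2 animals high in interferon genes SQLE was the lowest of its diet, at 6.0 and 6.60. ACAT2 and FASN were low in them too, ranking 13 and 14 of 15 for ACAT2 and 12 and 14 for FASN. The r of SQLE was -0.634 with ISG15 and -0.648 with ZBP1, and without these 2 animals it was -0.421 and -0.475. B2M, the light chain of class I histocompatibility molecules, was lowest in the same 2 animals, at 12.31 and 12.44, and its r with SQLE was 0.583 without them. AHSP was also lowest in these 2 animals, at 2.61 and 2.68, and its r with SQLE was 0.581 without them.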

How the data were processed

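The authors deposited 1 table of log2 signals per probe set for 15 arrays. The submitters' processing notes name GCOS and GCRMA. Their versions and settings and the genome build were not given in the sources used here. Scale (log2), the lack of centring and the restriction to variable probe sets were read from the values. Names came from the platform's annotation, where 1455 of 3255 tested probe sets had 1 symbol, 27 several and 1773 none. The 17 control probe sets were left out of tests.

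Fits used limma 3.58.1 in R 4.3.3 on all 3255 probe sets with two-sided tests, Benjamini-Hochberg adjustment and a threshold of 0.05. The diet fit had diet alone, and the slope fit had diet and live weight. Correlations used 1 probe set per gene (that with the highest mean), two-sided permutation tests (100000 resamples, or all orders under 10 animals) and Fisher's z for intervals. Residuals were permuted within diet at fixed diet and freely at other fixed terms, which is approximate. The sterol genes, lists and rules for naming genes were chosen with earlier results of these data known. The named genes were the members, FASN, every measured gene of 5 pathway lists and the 5 genes of highest and lowest r with each member. Both kinds of test were tested on simulated data. Alternatives added after seeing the data were spiked signal as a covariate of the diet and slope fits and beside diet and live weight in the correlations, leaving out animals within a diet or for the slope difference, and leaving out the 2 animals high in interferon genes. The comparison of same-numbered animals for single measures was also added then. Promoter motifs are not reported here.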

Additional observations from a re-analysis of the deposited data

How the results depend on the processing

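The alternatives were quantile normalization, median centring, brighter probe sets alone, an intensity trend with a robust prior, array weights, a floor, live weight or spiked signal as covariates, a weight window, a fit with no diet term leaving out each animal and leaving out the 2 animals high in interferon genes. The diet difference of SQLE kept its sign and missed the adjusted threshold in all 27, and the slope of ACAT2 did so in all 23. With live weight in the fit the diet difference was 0.13 for ACAT2, 0.70 for ACACA, 0.029 for ACSS2 and -0.42 for CH25H. Among animals of 109.5 to 118 kg it was 0.37 for ACACA and -0.10 for CH25H. For FASN it was -0.19 with spiked signal and -0.073 with array weights. The diet fit with spiked signal called 1 of 3255 probe sets, which was not FASN (limma adjusted p = 0.952). Leaving out each animal gave diet differences of -0.083 to 0.17 for FASN, -0.24 to 0.12 for ACACA and -0.13 to 0.16 for CH25H. With no diet term the slope of SQLE was -0.095 and 1 probe set was called; leaving out each animal gave 0 to 5 calls, with 5 without control animal 2. The slope difference was -1.30 for SQLE and -1.19 for ACAT2 without control animal 5. The cause was not tested for any of these.

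The correlation of SQLE with ACAT2 was -0.179 at fixed spiked signal, -0.106 at fixed diet, live weight and spiked signal, -0.0529 after median centring, -0.0131 without the 2 farthest animals, -0.317 without the 2 animals high in interferon genes and -0.128 to 0.190 leaving out each animal. That of SQLE with FASN was 0.166 to 0.608 leaving out each animal. That of ACAT2 with FASN missed the adjusted threshold at fixed diet, live weight and spiked signal (0.545). It did so too without the 2 farthest animals (0.625) and without the 2 high in interferon genes (0.646). In the smaller groups it missed within the control diet by Pearson's r (0.808) and within the high-oleic diet (0.682, rho 0.500). By rho the control diet passed (exact permutation test, adjusted p = 0.00119).

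Animal numbers are shared by the diets, and the main fits had no block for them. Over all probe sets 4 of 7 same-numbered pairs had deviations correlated above 0.1 (range -0.161 to 0.296). Among animals of the other diet, 5 of 14 animals correlated best with their own number. The count expected for unrelated numbers was not computed, and whether the numbers mark a shared condition was not tested. With the number as a replicate block the diet difference was 0.43 for SQLE and -0.050 for FASN, with 0 calls, and the slope was -0.063 for SQLE, 0.19 for FASN and -0.028 for ERLIN2. The correlations over the 7 differences were -0.0254 for SQLE with ACAT2, 0.0154 for SQLE with FASN and 0.0414 for ACAT2 with FASN, whose call was not made there (adjusted p = 0.977). Over the 7 same-numbered pairs r between the diets was 0.786 for spiked signal, 0.796 for ACAT2 and 0.755 for FASN. None of these passed after adjustment (exact permutation test, lowest adjusted p = 0.0966). At fixed spiked signal the r of ACAT2 with FASN was 0.639. Other probe sets of SQLE and ACAT2 were not run, as each had 1. Precision was limited by 15 arrays with no measure of background.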
